A study of Mus musculus with 12 samples.

Results

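The comparison described here is that of LDB1 knockdown (KD) MEL cells with control MEL cells. It rests on 6 of the 12 libraries of the study, 3 labelled as LDB1 KD and 3 labelled as the induced parental line, chosen by their labels alone. MEL cells are a mouse erythroleukemia line arrested at an early red cell stage, which begins to mature when treated with an inducer. All 6 libraries came from polyadenylated RNA of induced cells, and what induced them and for how long, the way the knockdown was made and whether the KD cells were a pool or 1 clone is not stated in the sources used here. The other 6 libraries, KD cells carrying full-length or delta 4/5 LDB1, entered the low-count filter, the scaling and the estimate of the spread. They did not enter the contrast itself. The labels do not state that replicate libraries are separate cultures, and a p-value here speaks only for the variation among these libraries, possibly technical.

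LDB1 is an adaptor without a DNA-binding domain of its own. It binds LIM domains, in blood cells those of LMO2, and through them the transcription factors GATA1 or GATA2 and TAL1, which recognise GATA and E-box motifs. LDB1 can also bind itself, and in erythroid cells it holds distant enhancers, such as the globin locus control region, close to the promoters they serve.

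Gene reads ranged from 8783970 to 12889381 per library in KD and from 9168258 to 16685173 in control. Reads aligned to several places, which were not counted, made up 42.69 to 48.51% of tallied reads in KD and 50.6 to 53.31% in control. The KD libraries resembled each other less than the control libraries did. Pearson correlations of log2 CPM (reads scaled to library size after TMM normalisation) were 0.957 to 0.981 between KD libraries and 0.986 to 0.993 between control libraries, and no 2 libraries agreed within counting noise. The level of a gene differed by 2-fold or more between KD libraries for 1870 of the 12837 tested genes (14.6%), and between control libraries for 452 (3.52%). A change was therefore read library by library as well as by the test. Genes were called with edgeR's quasi-likelihood test at a Benjamini-Hochberg adjusted p under 0.05, and a called gene was said to hold where every KD library lay outside the range of the 3 control libraries.

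The targeted gene followed its label in each library. Ldb1 (ENSMUSG00000025223) had 159, 132 and 97.1 CPM in the KD libraries, against 743, 773 and 637 CPM in the control libraries. The groups did not overlap, and KD replicate 3 had the least Ldb1 (log2 change -2.47 ± 0.16 SE, edgeR adjusted p = 1.55e-07).

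The test called 6380 of 12837 genes (49.7%), 3283 higher (25.6%) and 3097 lower (24.1%) in KD. Of these, 2919 held higher (22.7%) and 2878 held lower (22.4%). Changes of 2-fold or more in every KD library against the control mean were fewer, with 412 genes higher (3.21%) and 713 lower (5.55%), and 0.5 CPM was added to every level for this ratio. The balance of the 2-fold genes depended on read level. Among genes with a mean of 1 to 5 CPM over the 6 libraries, 89 were higher and 235 lower by 2-fold throughout, together 19.4% of the 1674 tested. Between 100 and 500 CPM the 2-fold genes were 45 higher and 74 lower, 4.6% of 2587. Of the 177 genes at 500 CPM or more, 125 were called, 46 of them higher and 79 lower, and 3 higher and 12 lower genes reached 2-fold in each KD library. The share called in that top class was 70.6%, while under 1 CPM it was 28.7%. The number called depended on the libraries in the fit. With the 6 KD and control libraries alone, 4606 of 12288 tested genes were called.

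**Figure D1:**
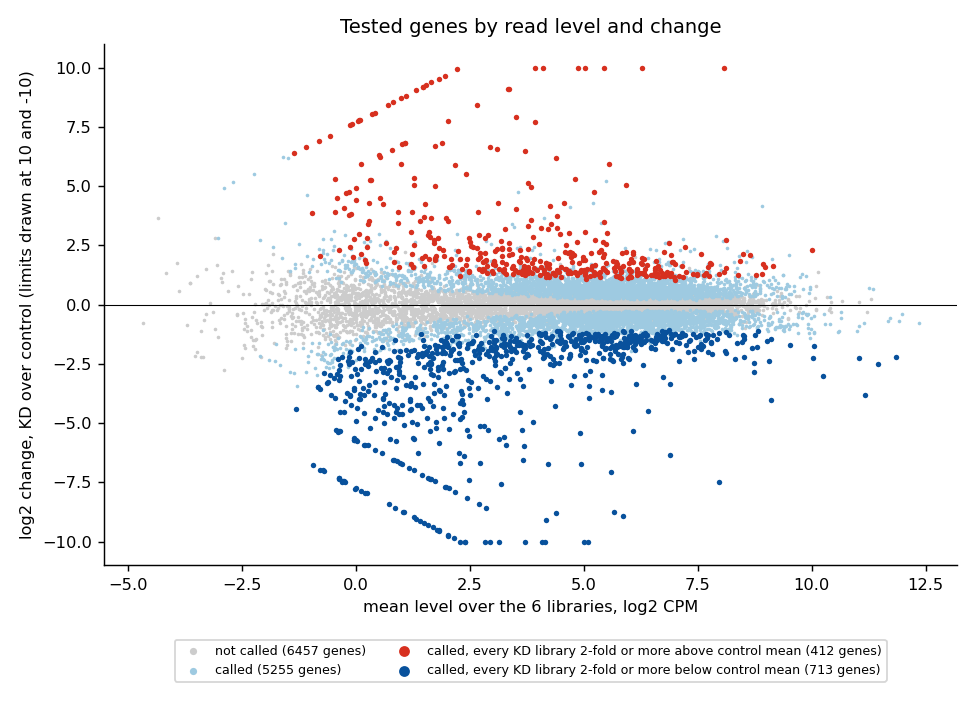
Log2 change of KD over control for each tested gene against its mean level in log2 CPM over the 6 libraries, with grey points not called, pale blue points called, and red and dark blue points at 2-fold or more from the control mean in every KD library (412 higher, 713 lower). The 713 dark blue points include more genes of low level, and diagonal rows at the left are genes read in 1 group and nearly or wholly unread in the other.

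Single libraries differed in how far they moved. KD replicate 3 had 1253 genes at 2-fold or more above the control mean and 1870 at 2-fold or more below. KD replicate 2 had 1072 above and 1560 below, and KD replicate 1 had 788 above and 1151 below. The 3 control libraries had 0 to 2 genes above and 11 to 13 below their own mean, which includes the library itself. KD replicate 3, with the lowest Ldb1, thus had the most genes past 2-fold in both directions, and 3 libraries are too few to test such an order. Of the called higher genes, 360 had exactly 2 KD libraries above the control range, and the library left within or under it was KD replicate 1 for 208 of them, KD replicate 2 for 72 and KD replicate 3 for 80. Of the called lower genes, 215 had exactly 2 KD libraries below, and the exception was KD replicate 1 for 111, KD replicate 2 for 33 and KD replicate 3 for 71. Another 45 genes were at least 2-fold above control in 1 KD library and at least 2-fold below in another, 15 of them called. For 26 of the 45, KD replicate 1 was below while both others were above, and these include interferon genes described further on.

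Markers of red cells were checked first. Of 18 tested erythroid identity genes 14 fell and 0 rose, and all 14 held, beside 24.1% lower and 25.6% higher over all tested genes. The exceptions were not called: the transcription factors Gata1 and Klf1, the erythropoietin receptor Epor and the transferrin receptor Tfrc. Gata1 had 575, 767 and 950 CPM in KD, against 852, 868 and 763 CPM in control, so the groups overlapped (log2 change -0.11, edgeR adjusted p = 0.541). Without KD replicate 1 the Gata1 change was 0.0497, still not called, and Epor and Klf1 were called higher (log2 changes 0.74 and 0.52, edgeR adjusted p = 0.000752 and 0.0128). Tfrc was called lower without KD replicate 3, without control replicate 1 or without control replicate 2. With all libraries kept, it was also called lower by DESeq2, with RLE scaling, without the low-count filter or with a replicate block. The mean log2 ratio of the list to control was -2.11, -1.70 and -1.32 in KD replicates 1 to 3, so KD replicate 1, which had the most Ldb1 of the KD libraries, had the lowest erythroid genes. Markers of other blood lineages were mostly scarce other than those of megakaryocytes, with 5 of 15 myeloid, 3 of 9 mast cell, 2 of 11 lymphoid, 3 of 12 stem cell and 4 of 12 stromal entries reaching the filter on low counts. The summed level was 26.2 to 63.9 CPM in KD and 67.1 to 84.2 CPM in control for myeloid markers, where S100a8 and S100a9 had 0 reads, and 32.6 to 44.9 CPM in KD and 13.5 to 15.5 CPM in control for lymphoid markers, where Cd8a and Il7r were among those with 0 reads. Of the tested markers 4 myeloid genes fell (2 without control replicate 1 or KD replicate 2) and 0 rose (1 without KD replicate 3 or any 1 control library). For mast cells 2 genes fell and 1 rose on few reads, but 1 fell with KD replicate 2, KD replicate 3 or any 1 control library left out, and 0 rose with control replicate 3 or KD replicate 3 left out. For the others, 2 lymphoid genes (Lck and Cd3g) rose, 1 stem cell gene (Angpt1) rose and 1 stromal gene (Tek) fell, and with KD replicate 1 left out 2 stem cell and 2 stromal genes fell. Megakaryocyte markers were 4 higher and 4 lower of 11, with Pf4, Gp1ba, Gp1bb and Gp5 (not called without KD replicate 2) higher and Itga2b, Tubb1 and Treml1 among those lower. What part cells of other types had in the changes below was not tested. In these bulk libraries, fewer cells of a type and less RNA per cell cannot be told apart.

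The promoters of 2 marker genes that moved in opposite directions show where the GATA motif can stand. Each window runs from 250 bases before to 50 bases after the start of the gene in RefSeq (build GRCm38.p6, not the authors' build), with the motif AGATAA, searched on both strands, in capitals. Alas2, the first enzyme of heme synthesis in red cells, lies on chrX:150547167-150547466 (plus strand), and Pf4, a platelet chemokine, on chr5:90772185-90772484 (plus strand).
Alas2: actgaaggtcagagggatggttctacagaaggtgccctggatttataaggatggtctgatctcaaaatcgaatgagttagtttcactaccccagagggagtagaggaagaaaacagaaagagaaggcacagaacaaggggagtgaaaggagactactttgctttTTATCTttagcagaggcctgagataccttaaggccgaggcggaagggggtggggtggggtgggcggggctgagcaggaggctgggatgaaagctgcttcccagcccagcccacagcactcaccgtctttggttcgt
Pf4: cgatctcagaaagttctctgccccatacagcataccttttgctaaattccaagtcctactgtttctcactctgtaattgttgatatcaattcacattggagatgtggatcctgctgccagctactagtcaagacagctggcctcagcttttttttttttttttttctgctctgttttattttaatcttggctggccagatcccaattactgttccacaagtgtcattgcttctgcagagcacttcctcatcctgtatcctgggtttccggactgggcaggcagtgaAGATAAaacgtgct
Both windows hold 1 match. Alas2 had 347, 470 and 647 CPM in KD, against 1513, 1639 and 1743 CPM in control (log2 change -1.74 ± 0.18, edgeR adjusted p = 7.03e-06). Pf4 had 526, 454 and 473 CPM in KD, against 78.1, 64.6 and 73.8 CPM in control (log2 change 2.75 ± 0.12, edgeR adjusted p = 5.79e-09). Neither gene overlapped between groups. The motif was found in 8.95% of 391 windows of genes at 2-fold or more higher in every KD library, in 8.45% of 663 windows of those lower, in 6.74% of 11593 windows of tested genes and in 11.2% of all 32851 windows, several genes having more than 1 window. A match describes the letters only, and binding was not measured here.

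Several partners of LDB1 rose in KD. Of 20 tested genes of the complex and its partners 8 rose and 3 fell, Ldb1 among those that fell, and all 11 held. Over all tested genes 25.6% were called higher and 24.1% lower, and 88.9% of the higher and 92.9% of the lower calls held. The median log2 change of the list was 0.28, against 0.02 over all tested genes. Gata2, the GATA factor of stem and progenitor cells, had 53.1, 69.0 and 53.9 CPM in KD, against 12.9, 13.6 and 12.1 CPM in control (log2 change 2.19 ± 0.133, edgeR adjusted p = 9.52e-08). Its 3 KD libraries lay close together and well above control. Tal1, the E-box binding subunit, had 779, 1169 and 1609 CPM in KD, against 499, 505 and 576 CPM in control (log2 change 1.17, edgeR adjusted p = 0.000267). Its close relative Lyl1 had 80.9, 171 and 183 CPM in KD, against 43.9, 42.9 and 39.1 CPM in control (log2 change 1.79, edgeR adjusted p = 6.63e-05). For both genes KD replicate 1 was the lowest KD library. Lmo2, the LIM-only bridge, and Ssbp3, which protects LDB1 from degradation, each rose by 0.84 on the log2 scale, Tcf3, an E protein, by 0.75, Gfi1b by 0.55 and Kdm1a by 0.39. The call of Gfi1b was lost without KD replicate 3, at 0.34. Lmo4, another LIM-only protein, fell by 0.91 and the corepressor Cbfa2t3 (ETO2) by 0.67.

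Among 19 other blood transcription factors tested, 2 rose and 3 fell, of which 1 and 3 held. Both shares called were below those over all tested genes, 25.6% higher and 24.1% lower. Sox6, a factor of red cell maturation, had 13.7, 7.06 and 7.36 CPM in KD, against 41.7, 38.7 and 46.6 CPM in control (log2 change -2.15 ± 0.217, edgeR adjusted p = 5.97e-06). Spi1 (PU.1), a driver of myeloid fate whose insertional activation underlies Friend erythroleukemia, fell by 1.05 on the log2 scale, and Ets2 rose by 0.84. The count of lower genes in this list was 7 without KD replicate 1. The count of higher genes was 1 without control replicate 1, without control replicate 2 or without KD replicate 2.

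**Figure D2:**
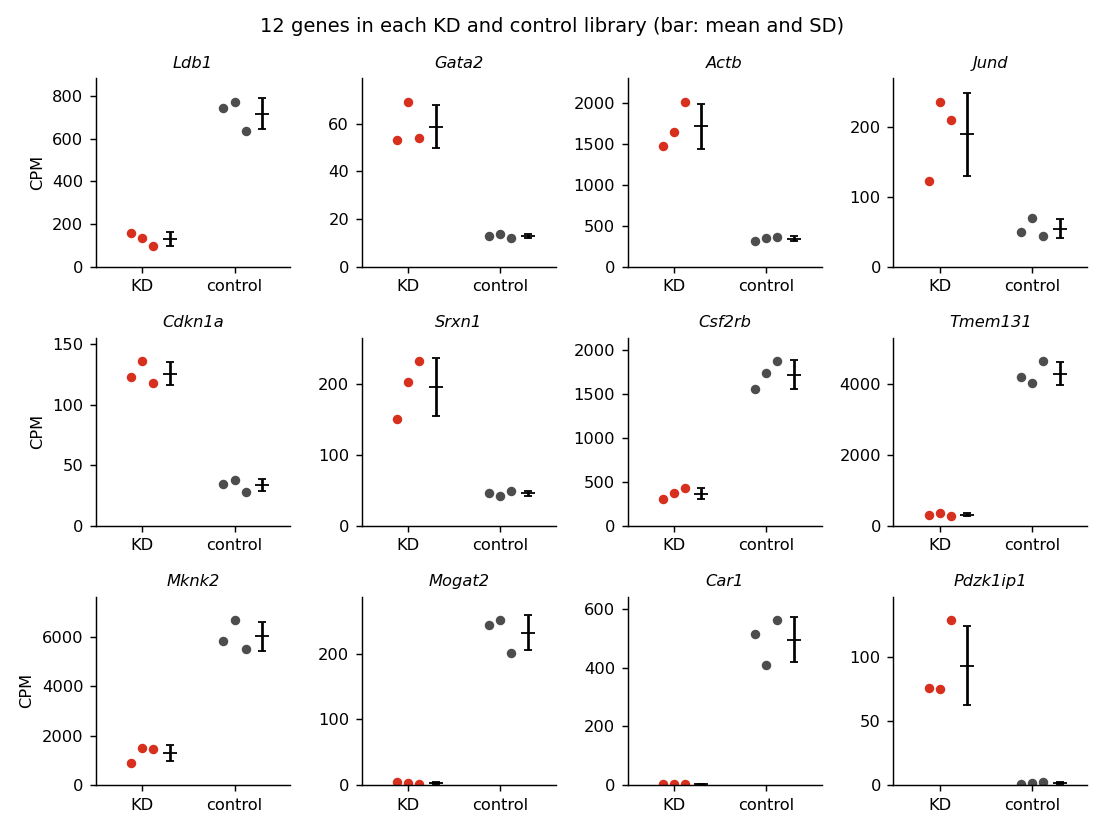
CPM in each KD (red, left) and control (grey, right) library for 12 genes named in the text, 1 panel a gene with its own linear axis from 0, and beside each group a bar for mean and SD (n = 3). In all 12 panels the KD and control points are separate, and KD is higher for Gata2, Actb, Jund, Cdkn1a, Srxn1 and Pdzk1ip1.

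Receptors and signalling proteins of white blood cells included some of the deepest falls. Of 15 cytokine and growth factor receptors tested 7 fell and 2 rose, beside 24.1% lower and 25.6% higher over all tested genes. Csf2rb, the shared beta chain of the IL-3, IL-5 and GM-CSF receptors, had 305, 370 and 425 CPM in KD, against 1550, 1734 and 1873 CPM in control (log2 change -2.23 ± 0.131, edgeR adjusted p = 7.13e-08). Csf2rb2, the mouse IL-3-specific copy beside it, had 43.3, 68.8 and 79.4 CPM in KD, against 949, 1080 and 1090 CPM in control, 16.3-fold lower. The 2 genes are similar in sequence, so reads may have been lost or exchanged between them. Il2rg, the common gamma chain, had 0.837, 0.868 and 1.05 CPM in KD, against 24.8, 28.9 and 32.0 CPM in control (log2 change -4.95, edgeR adjusted p = 3.72e-08). The chemokine receptor Cxcr4 went the other way, at 64.8, 63.2 and 49.6 CPM in KD, against 23.9, 27.0 and 23.1 CPM in control. Cxcr4 and Ifnar1 were the 2 receptors called higher, and the call of Ifnar1 was lost without KD replicate 2 or without any 1 control library.

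In the list of leukocyte signalling and adhesion genes 12 of 25 fell and 5 rose, of which 11 and 3 held. Over all tested genes 24.1% were called lower and 25.6% higher, and 22.4% and 22.7% held. Hcls1 (an actin regulator of blood cells), Cd48 and the kinase Syk had 0 reads in all 3 KD libraries, against 68.3, 35.3 and 33.6 CPM on average in control. Against 3 reads over the KD group these are at least 788-fold, 422-fold and 398-fold lower. Itgal, the alpha chain of the LFA-1 integrin, had 0.906, 0.868 and 0.35 CPM in KD, against 97.1, 94.5 and 95.03 CPM in control (log2 change -7.05, edgeR adjusted p = 3.17e-09). The adaptor Lcp2 (SLP-76) fell by 4.02 on the log2 scale, and by 5.01 without KD replicate 1. Itgb2, the beta chain of LFA-1, fell by 0.93, with 63.5, 46.8 and 43.6 CPM in KD, against 99.98, 97.0 and 97.6 CPM in control. The 5 higher genes became 3 without any 1 control library, while Lck, a T cell kinase, had 18.3, 27.4 and 29.2 CPM in KD, against 10.4, 8.02 and 9.40 CPM in control.

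Immediate early genes and feedback regulators of signalling numbered 12 higher of 28 against 1 that fell (2 without KD replicate 1 or control replicate 1). The list median was 0.58 (log2), and the shares over all tested genes were 25.6% higher and 24.1% lower. Jund, a member of the AP-1 factors, had 122, 236 and 210 CPM in KD, against 50.04, 69.0 and 43.6 CPM in control (log2 change 1.81 ± 0.284, edgeR adjusted p = 0.000194). Ier3 had 60.5, 143 and 106 CPM in KD, against 32.8, 26.7 and 21.4 CPM in control. The MAP kinase phosphatases Dusp5 and Dusp1 rose by 1.84 and 1.79 on the log2 scale, all 3 KD libraries lying above control. Jun, with 1 read over the control libraries, had 1.95, 5.43 and 2.89 CPM in KD. Myc had 144, 236 and 199 CPM in KD, against 113, 114 and 109 CPM in control (log2 change 0.79, edgeR adjusted p = 0.00103). Dusp10 was the 1 gene of the list that fell, by 1.05 (log2), and 2 genes fell without KD replicate 1 or without control replicate 1.

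Among 31 tested cytoskeleton genes, for actin, tubulin and their partners, 16 rose, 2 fell and the others were not called. Their median was 0.32 (log2), and the shares over all tested genes were 25.6% higher and 24.1% lower. The lower count was 1 without KD replicate 2 or without control replicate 3. Actb, cytoplasmic beta-actin, had 1480, 1654 and 2016 CPM in KD, against 309, 352 and 369 CPM in control, 5-fold higher (log2 change 2.32 ± 0.142, edgeR adjusted p = 1e-07). Gamma-actin, Actg1, did not pass the test (log2 change -0.57, edgeR adjusted p = 0.271). The actin-monomer binder Pfn1 had 945, 1246 and 1586 CPM in KD, against 501, 539 and 492 CPM in control. Myl9, a myosin light chain, had 113, 107 and 134 CPM in KD, against 36.7, 32.1 and 39.0 CPM in control (log2 change 1.72, edgeR adjusted p = 7.58e-07). Tmsb4x, an actin-sequestering peptide, was read at 731, 381 and 501 CPM in KD and had 0 reads in control, at least 6820-fold higher against 3 reads over the control group. Among tubulins, Tuba1a rose by 1.45, Tubb2a by 1.05, Tuba4a by 1.03, Tuba1b by 0.90 and Tubb4b by 0.88 (log2), while Tubb1, the tubulin of platelets, fell by 4.15. Actin and tubulin genes have near-identical copies, so their counts are uncertain where reads aligned to several places.

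The cell cycle lists went in opposite directions, in a comparison with 25.6% of all tested genes called higher and 24.1% lower. Of 33 DNA replication genes tested 23 rose and 2 fell, with a median of 0.61, and of 28 mitosis genes 0 rose and 20 fell, with a median of -0.66. Rrm2, a subunit of ribonucleotide reductase, had 138, 109 and 88.7 CPM in KD, against 45.01, 43.2 and 46.8 CPM in control (log2 change 1.31 ± 0.15, edgeR adjusted p = 1.59e-05). Mcm7 of the replicative helicase had 173, 180 and 217 CPM in KD, against 87.6, 84.4 and 76.4 CPM in control. The licensing factor Cdt1 was opposite to its list, at 96.8, 107 and 96.5 CPM in KD, against 262, 246 and 208 CPM in control (log2 change -1.25, edgeR adjusted p = 5.88e-06). Rrm1 also fell, by 0.31, and only 1 gene of the list was lower with any of KD replicate 2, control replicate 1 or control replicate 3 left out. Cenpa, the centromeric histone, had 158, 164 and 161 CPM in KD, against 511, 480 and 485 CPM in control (log2 change -1.61 ± 0.12, edgeR adjusted p = 5.33e-07). The kinesin Kif23 had 44.9, 39.0 and 34.4 CPM in KD, against 103, 87.1 and 115 CPM in control. Cyclin A2 (Ccna2) fell by 1.03, whereas Cdk1 had a log2 change of -0.22 and Aurkb of -0.15, neither called. The mean ratio of the mitosis list was -0.57, -0.73 and -0.77 (log2) in KD replicates 1 to 3, and that of the replication list 0.55, 0.41 and 0.52.

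Of 20 G1 regulators 5 were higher and 6 lower, and of 23 p53 and apoptosis genes 7 rose and 6 fell. These shares are near those over all tested genes, 25.6% higher and 24.1% lower, so only single genes are described. In the G1 list 3 higher and 6 lower genes held, and in the other list 6 higher and 5 lower. Cdkn1a (p21), an inhibitor of cyclin-dependent kinases, had 123, 136 and 118 CPM in KD, against 34.7, 37.5 and 28.2 CPM in control (log2 change 1.91 ± 0.122, edgeR adjusted p = 1.38e-07). Its relative Cdkn1b (p27) had 82.3, 90.0 and 73.6 CPM in KD, against 182, 189 and 238 CPM in control (log2 change -1.31, edgeR adjusted p = 3.75e-06). The higher genes of the G1 list numbered 3 with any of KD replicate 2, KD replicate 3 or control replicate 2 left out. In the p53 and apoptosis list, Bcl2l11 (BIM), which promotes apoptosis, had 223, 185 and 170 CPM in KD, against 57.9, 53.8 and 55.5 CPM in control (log2 change 1.79, edgeR adjusted p = 3.22e-07). Anti-apoptotic Bcl2l1 rose by 1.07 and Bcl2 fell by 1.20 (log2), while the p53 target Gadd45a fell by 1.54.

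Genes that build ribosomes and genes that make up ribosomes also parted, beside 25.6% higher and 24.1% lower over all tested genes. In RNA polymerase I and ribosome biogenesis 20 of 27 rose and 0 fell, all 20 holding, with a median of 0.67. The list mean was 0.65, 0.67 and 0.68 (log2) in the KD libraries, close together although those libraries differ in other respects. Mybbp1a, a nucleolar protein, had 263, 273 and 226 CPM in KD, against 113, 101 and 95.1 CPM in control (log2 change 1.30 ± 0.103, edgeR adjusted p = 8.2e-07). Polr1a, the largest subunit of the polymerase, had 55.6, 58.1 and 45 CPM in KD, against 21, 21.0 and 23.9 CPM in control. Ubtf, which binds the rRNA gene promoter, had 248, 357 and 328 CPM in KD, against 150, 151 and 143 CPM in control. Of 28 cytosolic ribosomal protein genes 0 rose and 21 fell, with a median of -0.86. The mean of this list was -0.94, -0.72 and -0.55 (log2) in KD replicates 1 to 3. It also varied among control replicates 1 to 3, at 0.21, 0.05 and -0.26. Rpl32 had 446.5, 464.5 and 617 CPM in KD, against 1255, 1138 and 1068 CPM in control (log2 change -1.18 ± 0.137, edgeR adjusted p = 1.86e-05). The elongation factor Eef2 had 3627, 4002 and 3830 CPM in KD, against 7118, 6779 and 5815 CPM in control. Ribosomal protein genes have many processed copies in the genome, and the share of reads aligned to several places, given above, was lower in KD; its part in these changes was not tested.

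**Figure D3:**
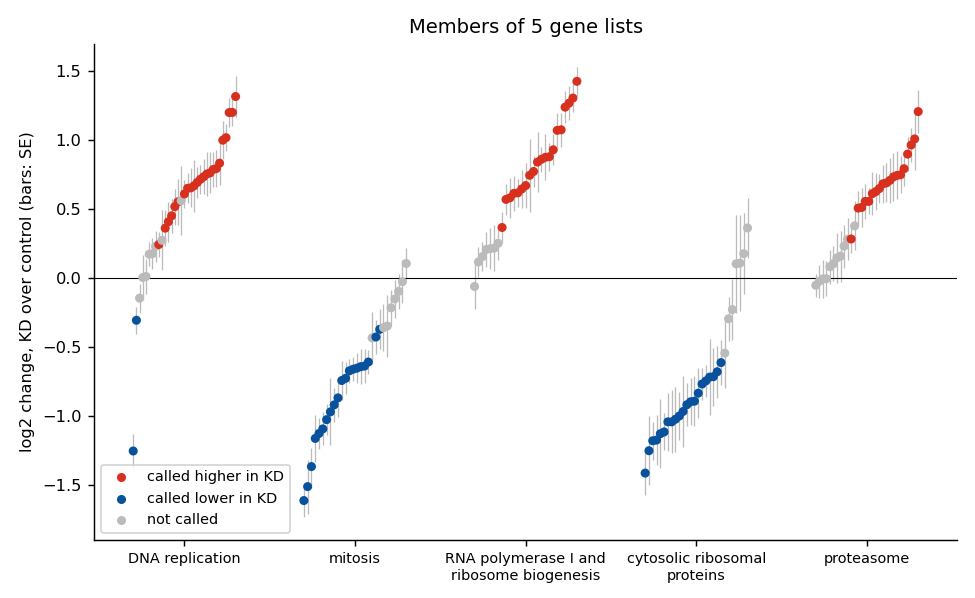
Log2 change of KD over control with SE for each tested member of 5 lists, sorted within a list, in red where called higher, blue where called lower and grey where not called. Replication (23 of 33 higher), ribosome biogenesis (20 of 27) and proteasome (19 of 30) lie mostly above 0. Mitosis (20 of 28 lower) and ribosomal proteins (21 of 28) lie mostly below. Among all tested genes 25.6% were called higher and 24.1% lower.

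Of 30 proteasome genes 19 rose and 0 fell, and all 19 held, with a median of 0.55. For this list and those that follow here, the shares over all tested genes were 25.6% higher and 24.1% lower. Psma6, a subunit of the core ring, had 213, 203 and 307 CPM in KD, against 106, 90.0 and 117 CPM in control (log2 change 1.21 ± 0.153, edgeR adjusted p = 3.6e-05). Of 16 heat shock genes of the cytosol and mitochondria 10 rose and 4 fell. Hsp90aa1, the inducible HSP90, had 355, 337 and 327 CPM in KD, against 107, 103 and 102 CPM in control (log2 change 1.71 ± 0.0872, edgeR adjusted p = 2.1e-08). The lower genes here were 2 without control replicate 1 or without KD replicate 2. Of 16 chaperones of the endoplasmic reticulum 10 were lower and 2 higher, of which 10 and 1 held. Canx, calnexin, had 460, 376 and 425 CPM in KD, against 876, 858 and 998 CPM in control (log2 change -1.11, edgeR adjusted p = 1.29e-05). The lower count was 6 without control replicate 1, and the higher count 1 without any 1 control library or without KD replicate 3. Lysosomal genes were 11 lower and 4 higher of 26, among them Ctsb (cathepsin B), which fell by 0.93 (log2), and Hexa, which fell by 1.05. Among 22 autophagy genes 9 fell and 3 rose, and the initiating kinase Ulk1 had 83.1, 101 and 84.9 CPM in KD, against 325, 314 and 262 CPM in control (log2 change -1.75, edgeR adjusted p = 1.92e-07).

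Of 25 antioxidant and pentose phosphate genes 11 rose and 3 fell, beside 25.6% higher and 24.1% lower over all tested genes. Srxn1 (sulfiredoxin), a target of the factor NRF2, had 151, 203 and 232 CPM in KD, against 46.7, 42.2 and 49.3 CPM in control (log2 change 2.08 ± 0.141, edgeR adjusted p = 2.22e-07). Nqo1 rose by 1.46, Prdx1 by 1.39, Pgd by 1.35 and Gsr by 1.15 on the log2 scale. Gpx1, the glutathione peroxidase abundant in red cells, had 353, 512 and 761 CPM in KD, against 1581, 1503 and 1270 CPM in control (log2 change -1.42, edgeR adjusted p = 0.000322).

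Amino acid and nucleotide supply genes were moved in both directions, beside 25.6% higher and 24.1% lower over all tested genes. Of 21 genes of the ATF4 response and amino acid supply 11 rose and 6 fell. Atf4 had 442, 638 and 618 CPM in KD, against 333, 352 and 250 CPM in control (log2 change 0.86, edgeR adjusted p = 0.000632). Its target Asns, asparagine synthetase, had 170, 162 and 194 CPM in KD, against 601, 524 and 459 CPM in control (log2 change -1.59, edgeR adjusted p = 3.78e-07). Other ATF4 targets, Chac1 and Sesn2, rose by 1.72 and 1.11, and Ddit3 (CHOP) fell by 1.20. Of 24 nucleotide and polyamine genes 10 rose and 3 fell. Purine synthesis was represented by Atic, at 125, 126 and 123 CPM in KD, against 54.9, 48.9 and 52.4 CPM in control (log2 change 1.26 ± 0.087, edgeR adjusted p = 2.7e-07), and by Adsl and Gart, which rose by 1.14 and 1.04. The salvage enzyme Aprt had 112, 145 and 130 CPM in KD, against 697, 624 and 475 CPM in control (log2 change -2.21, edgeR adjusted p = 1.73e-06).

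Some lists of energy metabolism differed between the KD libraries. Over all tested genes 25.6% were called higher and 24.1% lower. The shares of glycolysis and the citric acid cycle were near these and those of the respiratory chain below them. Their counts are therefore no result about these lists. Glycolysis had 4 of 20 genes higher and 6 lower, and 11 higher without KD replicate 1, but 2 higher with any of KD replicate 2, KD replicate 3 or control replicate 3 left out. Of the called glycolysis genes 2 higher and 6 lower held. The mean of the glycolysis list was -0.41, 0.18 and 0.12 (log2) in KD replicates 1 to 3. That of the respiratory chain was -0.08, -0.04 and 0.38, and that of the citric acid cycle -0.14, -0.27 and -0.11. Pfkp, a phosphofructokinase, had 357, 537 and 516 CPM in KD, against 197, 243 and 193 CPM in control, higher in each KD library, and Gpi1 had 401, 494 and 456 CPM in KD, against 869, 854 and 735 CPM in control. Respiratory chain genes were 4 higher and 2 lower of 25. Of them 9 were higher without KD replicate 1, and 2 with KD replicate 3 or control replicate 3 left out. The lower count came to 4 with KD replicate 3 left out and 1 with KD replicate 2 left out. Oxygen-response genes were 5 higher and 8 lower of 19, of which 4 and 8 held, with 8 higher without KD replicate 1. Ndrg1, a hypoxia-inducible gene, had 444, 666 and 550 CPM in KD, against 243, 236 and 204 CPM in control (log2 change 1.28, edgeR adjusted p = 1.21e-05), whereas Bhlhe40, also inducible by hypoxia, had 45.3, 90.4 and 67.3 CPM in KD, against 233, 224 and 160 CPM in control (log2 change -1.61, edgeR adjusted p = 5.01e-05). In the citric acid cycle list 4 rose and 5 fell of 20, the higher ones being 2 without control replicate 2. Pcx, pyruvate carboxylase, had 15.0, 18.8 and 20.1 CPM in KD, against 92.9, 114 and 88.9 CPM in control (log2 change -2.46 ± 0.146, edgeR adjusted p = 7.94e-08). Sterol and fatty acid synthesis had 9 of 25 genes lower and 3 higher, Scd1 falling by 1.61 and Fasn rising by 0.63 (log2). In that list 8 lower genes and 1 higher gene held. Heme and iron genes were 9 lower and 3 higher of 24, with 5 higher without KD replicate 1. Among those that fell, Ppox had 53.3, 74.4 and 59.4 CPM in KD, against 253.5, 260.9 and 228 CPM in control (log2 change -1.99, edgeR adjusted p = 1.12e-07). The ferritin heavy chain Fth1 was among those that rose, at 2833, 2958 and 3849 CPM in KD, against 1994, 2039 and 1990 CPM in control.

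Chromatin regulators moved in both directions, as did all tested genes, of which 25.6% were called higher and 24.1% lower. The NuRD complex had 9 of 13 genes higher and 1 lower. The lower ones numbered 2 without KD replicate 1. Hdac1 had 26.4, 27.3 and 37.2 CPM in KD, against 12.97, 13.6 and 13.8 CPM in control (log2 change 1.17, edgeR adjusted p = 2.98e-05). The ATPase Chd4 had 803, 902 and 671 CPM in KD, against 488, 502 and 477 CPM in control. Polycomb genes were 10 higher and 5 lower of 19, Rnf2 falling by 0.95 and Ring1, its paralog, rising by 0.76 (log2). Of 15 SWI/SNF genes 5 rose and 2 fell, led by Brd9 with 40.9, 46.8 and 52.6 CPM in KD, against 17.7, 16.7 and 16.8 CPM in control (log2 change 1.46, edgeR adjusted p = 3.18e-06), while the ATPase Smarca4 fell by 0.52. Of the SWI/SNF genes called, 3 higher and 2 lower held. Of 10 DNA methylation genes 2 rose and 4 fell. Mbd1, a methyl-CpG reader, had 2 reads over the KD libraries and 38.6, 34.6 and 35.1 CPM in control (edgeR adjusted p = 5.16e-07). Tet2 had 28.1, 17.4 and 12.7 CPM in KD, against 52.3, 47.2 and 47.5 CPM in control. In the list of CTCF, cohesin and Mediator, proteins of loops and enhancers, 4 rose and 3 fell of 23, and 8 fell without KD replicate 1. With all libraries kept, 3 higher and 3 lower genes held, and both shares called were below those over all tested genes. The higher ones numbered 2 without KD replicate 1 or without control replicate 2. Ctcf itself had 129, 134 and 97.5 CPM in KD, against 163, 158 and 175 CPM in control (log2 change -0.46 ± 0.13, edgeR adjusted p = 0.00982). The Mediator kinase Cdk8 had 74.8, 81.2 and 57.7 CPM in KD, against 172, 170 and 183 CPM in control (log2 change -1.30, edgeR adjusted p = 3.12e-06).

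In RNA processing and tRNA charging the shares called were near or below those over all tested genes, 25.6% higher and 24.1% lower, and are no result about these lists. Of 26 splicing factors 7 rose and 3 fell, of which 5 and 2 held, the lower ones being 5 without KD replicate 1. Srsf6 had 279, 287 and 334 CPM in KD, against 116, 120 and 156 CPM in control (log2 change 1.20, edgeR adjusted p = 6.55e-06). Of 20 cytosolic tRNA synthetases 6 rose and 5 fell, the lower ones being 2 without control replicate 1 and 3 without control replicate 2. With all libraries kept, 4 higher and 3 lower synthetases held. Wars had 169, 192 and 166 CPM in KD, against 75.2, 78.9 and 77.6 CPM in control (log2 change 1.19 ± 0.0933, edgeR adjusted p = 7.95e-07). In the list of matrix genes, surface proteases and cadherins 5 of 14 fell and 3 rose. Mmp14, a membrane-bound metalloprotease, had 68.7, 59.9 and 45.8 CPM in KD and 0 reads in control, at least 713-fold higher against 3 reads over the control group.

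Interferon response genes split the KD libraries. Among all tested genes 25.6% were called higher and 24.1% lower. By the test 21 of 30 rose and 0 fell, with a median log2 change of 1.80, but only 3 of the 21 held, Irf1, Ddx58 and Cmpk2. The list mean was -1.35, 1.82 and 2.98 (log2) in KD replicates 1 to 3, and from -0.25 to 0.21 in the control libraries. Irf7, the factor that amplifies the type I interferon response, had 41.6, 1457 and 3405 CPM in KD, against 555, 686 and 618 CPM in control. It was below every control library in KD replicate 1 and above every one in the others, and was not called (log2 change 1.4 ± 0.828, edgeR adjusted p = 0.177). Ifit1 had 2.93, 213 and 1052 CPM in KD, against 34.9, 47.0 and 85.4 CPM in control, with its call lost without KD replicate 3 or without any 1 control library. Ddx58 (RIG-I), an RNA sensor, had 57.1, 203 and 337 CPM in KD, against 27.4, 28.5 and 40.0 CPM in control, above control in each KD library (log2 change 2.63 ± 0.444, edgeR adjusted p = 0.00033, and 2.01 without KD replicate 3). Cmpk2 had 11.99, 140 and 309 CPM in KD and 0 reads in control. The called genes numbered 8 higher and 1 lower without KD replicate 3, 10 higher without control replicate 1 and 13 higher without control replicate 2. Without KD replicate 1, 29 genes held, and without control replicate 3, 5 held. The 10 tested genes with the widest range among KD libraries (at 5 CPM or more) were Ifit1, Ifi44, Iigp1, Ifi47, Apol9b, Gbp3, Isg15, Rsad2, Irf7 and Rtp4, and in each KD replicate 1 was lowest and KD replicate 3 highest.

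The genes of MHC class I presentation, which interferon can induce, showed the same order with smaller steps. Of 13 tested 11 rose and 0 fell, 6 of them holding, beside 25.6% higher and 24.1% lower over all tested genes. The list mean was -0.07, 1.39 and 2.11 (log2) in KD replicates 1 to 3. Psmb8, a subunit of the immunoproteasome, had 96.2, 232 and 424 CPM in KD, against 42.8, 49.8 and 44.6 CPM in control (log2 change 2.46 ± 0.373, edgeR adjusted p = 0.000148, and 1.84 without KD replicate 3). Tap1, a peptide transporter, had 105, 343 and 524 CPM in KD, against 98.1, 102 and 95.7 CPM in control, KD replicate 1 lying just above the control range. H2-K1, a class I heavy chain, had 279, 886 and 1611 CPM in KD, against 383, 418 and 370 CPM in control. Its call was lost without KD replicate 3, without control replicate 1 or without control replicate 3. The higher count was 7 without KD replicate 3, and 13 genes held without KD replicate 1.

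**Figure D4:**
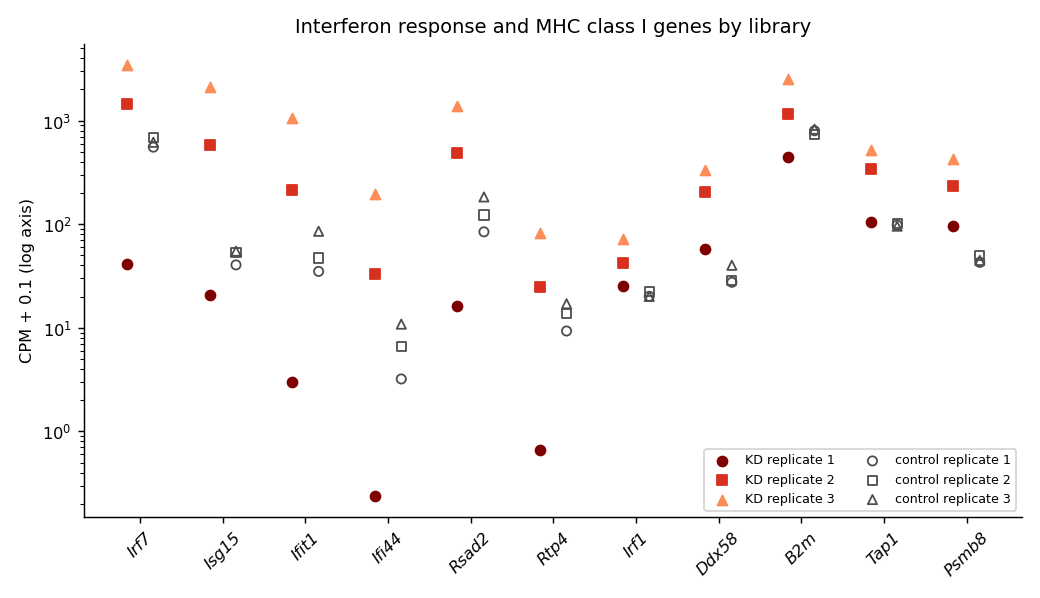
CPM on a log axis, with 0.1 added, of 11 interferon response and MHC class I genes in KD replicates 1 to 3 (filled, left of each gene) and control replicates 1 to 3 (open, right). KD replicate 1 lies under the control libraries for Irf7, Isg15, Ifit1, Ifi44, Rsad2, Rtp4 and B2m, and KD replicates 2 and 3 lie above the control libraries for all 11 genes.

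**Figure D5:**
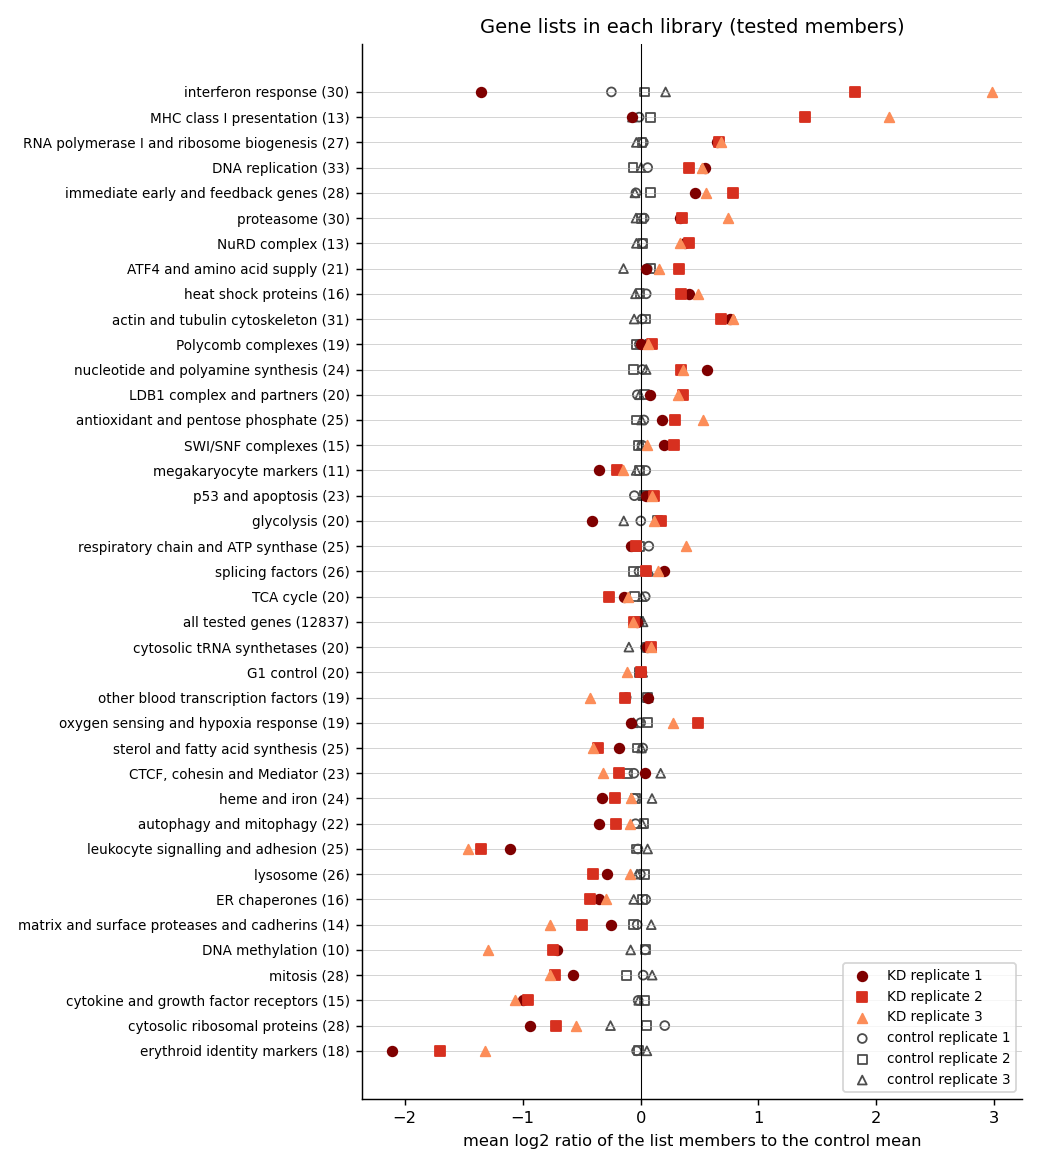
Mean log2 ratio to the control mean over the tested members of each list with 10 or more (number in brackets), in KD replicates 1 to 3 (filled) and control replicates 1 to 3 (open), sorted by the list's median change. The interferon and MHC class I lists spread widest between KD libraries, and ribosome biogenesis, at 0.65 to 0.68, is among the tightest.

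The largest changes among genes read in both groups were picked after the values were seen, at 1 CPM or more in each group. Pdzk1ip1, beside Tal1 in the genome, had 75.9, 74.6 and 129 CPM in KD, against 1.07, 1.103 and 2.06 CPM in control (log2 change 5.95 ± 0.3, edgeR adjusted p = 2.06e-08). Col18a1, a basement membrane collagen, had 119, 130 and 106 CPM in KD, against 2.89, 4.71 and 3.06 CPM in control (log2 change 5.07, edgeR adjusted p = 1.59e-09). Hes1, a repressor induced by Notch, had 35.3, 38.1 and 32.7 CPM in KD, against 3.64, 2.71 and 3.53 CPM in control (log2 change 3.41, edgeR adjusted p = 5.03e-08). The 3 genes were far above control in each KD library. The mitochondrial fatty acid oxidation enzyme Acadl had 61.8, 59.2 and 95.4 CPM in KD, against 2.57, 2.11 and 3.12 CPM in control. Calr3, Clca3a1, Col4a3, Rnf150, Tmod4, Rasl11a, Mid1 and Lat complete the 12 largest, with log2 changes of 3.34 to 5.30, and that of Clca3a1 was 4.29, or 3.54 without KD replicate 3.

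Among the 12 largest falls, Car1 led with a log2 change of -7.49. Mogat2, an acyltransferase of fat synthesis, had 4.39, 2.39 and 1.49 CPM in KD, against 244, 252 and 202 CPM in control (log2 change -6.35 ± 0.299, edgeR adjusted p = 1.02e-08). Tns1 (tensin), which links actin to integrins, had 11.02, 6.62 and 3.59 CPM in KD, against 169, 171 and 146 CPM in control. Tmem131 stood out by level, at 306, 352 and 276 CPM in KD, against 4221, 4038 and 4660 CPM in control (log2 change -3.79 ± 0.132, edgeR adjusted p = 8.93e-10). Other abundant transcripts that fell were Mknk2, a kinase of the cap-binding factor eIF4E, with 909, 1507 and 1465 CPM in KD, against 5869, 6693 and 5533 CPM in control, and Cers2, a ceramide synthase, with 684, 653 and 852 CPM in KD, against 3442, 3297 and 3561 CPM in control. Nxpe2, Sept1, Arhgap15, Csf2rb2, Rnf43, Plekha1, Amhr2 and Btn1a1 complete the falls, with log2 changes of -3.60 to -5.40. Without KD replicate 1 the change of Nxpe2 was -6.52 in place of -5.40, that of Arhgap15 -5.19 in place of -4.26 and that of Btn1a1 -4.18 in place of -3.60.

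Some genes were read in 1 group only. Besides those named above, Egln3, Zcchc3, Prps2, Armcx1, Cacng7, Zmym6, Krt18 and Btbd3 had 0 reads in control and were at least 68.5-fold to 749-fold higher in KD, counted against 3 reads over the control group. Egln3, a prolyl hydroxylase of the oxygen-sensing pathway, had 46.7, 87.0 and 60.6 CPM in KD. Tex19.1 had 79.2, 76.8 and 104 CPM in KD and 1 read over the control libraries. In the other direction Cdh19, Cttnbp2, Zfp783, Gstk1, Zc4h2, Oxgr1, Zfp467, Slc9a7 and Prickle3 had 0 reads in KD and were at least 92.8-fold to 798-fold lower there, counted against 3 reads over the KD group. These bounds cover counting error only, since the reads carry no molecular identifiers.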

How the data were processed

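Polyadenylated RNA was sequenced from unstranded TruSeq libraries, per the labels' protocols. The authors deposited raw counts per Ensembl gene (37991 genes), and the submitters' processing notes name cutadapt 1.1, TopHat 1.4.1, HTSeq 0.5.3p9, DESeq 1.10.1 and genome build mm9. Genes and antisense or overlapping partners cannot be told apart, and reads of near-identical copies are partly lost. Rows naming no gene (reads outside genes 2.12 to 3.19%, ambiguous 1.33 to 1.81%, and those aligned to several places, given in the report) were left out. Symbols matched 32919 identifiers.

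Genes passing filterByExpr were scaled by TMM and tested with edgeR 4.0.16 (glmQLFit, glmQLFTest, R 4.3.3), 1 mean for each of 4 groups and all 12 libraries in the fit, at a Benjamini-Hochberg adjusted p under 0.05. The smallest two-sided p of an exact permutation test at this size is 0.1, and calls therefore use variance information borrowed between genes. The fit also takes 1 spread for each gene in all 4 groups, although KD libraries differed more among themselves than control libraries. No batch is labelled. The test was checked on simulated counts of 12065 genes. Only 50 genes were changed at each fold, whereas 49.7% of genes were called in the data. Each gene had the same spread in all groups, and KD libraries did not shift against each other. It recovered 26% of the genes changed 1.5-fold and 78% of those changed 2-fold. For 4-fold and 8-fold changes the shares were 96% and 98%, and 10 genes were called wrongly. Small changes can thus be missed. With these settings, the shares recovered and the wrong calls may not carry over to the real comparison. Alternatives were RLE scaling, library totals, DESeq2 1.42.0, other filters, the 6 libraries alone, a replicate block, a test against 1.5-fold, and each library left out.

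The comparison, the 43 gene lists and the rule for named genes were chosen with earlier results of these data known. The lists held 943 entries, 839 of them tested, 99 under the filter and 5 not matched. Named were Ldb1, up to 12 genes each way by fold (held at 2-fold, 5 CPM or more), up to 8 each way by reads in control (held at 1.5-fold), up to 4 per list by adjusted p, again among those holding, and the 10 widest ranges in KD, leaving out predicted, pseudogene, histone, globin and described membrane genes. Other list members named were chosen after their values were seen. Genes withheld for evaluation are not reported here.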

Additional observations from a re-analysis of the deposited data

Results flagged for a closer look

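Ambiguous reads, those overlapping more than 1 gene and left out of the counts, were a higher share of all tallied reads in KD. It averaged 1.73% of tallied reads in KD and 1.36% in control, with ranges of 1.68 to 1.81% in KD and 1.33 to 1.39% in control that did not overlap. Tallied reads include those aligned to several places, 42.69 to 48.51% in KD and 50.6 to 53.31% in control. The shares thus rest on unlike totals, and the part of this in the difference was not tested. Ambiguous reads belong to no comparison above.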

How the results depend on the processing

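Counts of called genes stayed within 1.5 times in every alternative but the test against 1.5-fold, which called 1098 higher and 1289 lower. RLE scaling called 3087 higher and 3259 lower, library totals 3607 and 2783, DESeq2 3182 and 3360, no filter 3277 and 3274, the stricter filter 2956 and 2733, and the 6 libraries alone 2350 and 2256, keeping 72.2% of the calls. With the replicate number as a block 3333 were higher and 3260 lower. Same-numbered KD and control libraries had correlations of deviations from their group means of -0.14, 0.47 and -0.09. Those of unlike numbers ran from -0.46 to 0.34. Deviations from a mean of 3 libraries constrain one another, so these values cannot decide whether the numbers pair the samples. Leaving out 1 library gave 2807 to 3636 higher and 2736 to 3664 lower, both counts largest without KD replicate 1. In 0 of these fits was a called gene called in the opposite direction.

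Of 272 genes named by rule or added, 261 were called, and 244 kept call and sign in every alternative. The log2 change of Ifi47 was 1.72 and ranged from -0.67 to 2.30 with 1 library left out, that of Rtp4 was 1.41 and ranged from -0.15 to 1.99. Both were below 0 without KD replicate 3. Gata1, at -0.11, ranged from -0.30 to 0.0497 and was above 0 without KD replicate 1. Irf7, Ifi47 and Rtp4 were called without KD replicate 1. The calls of Ifit1, Ifi44, Iigp1, Apol9b and Rsad2 were lost without KD replicate 3, and the cause was not tested. List counts that moved by over 1.5 times with all libraries kept were these. The 6 libraries alone gave, as higher genes, 9 for interferon, 7 for MHC class I, 4 for splicing, 2 each for glycolysis, G1 control, leukocyte signalling and the CTCF, cohesin and Mediator list, 1 each for the respiratory chain, the citric acid cycle, sterol synthesis, cytokine receptors, ER chaperones and other blood transcription factors, and 0 for mast cells. As lower genes they gave 5 for ER chaperones, 3 for G1 control, 2 for heat shock, 1 each for tRNA synthetases, DNA replication, myeloid and mast cells, and 0 for the cytoskeleton and the respiratory chain. DESeq2 gave 7 lower for CTCF, cohesin and Mediator, 5 for splicing, 2 for immediate early genes, 1 for mast and 1 for stem cells, and 1 higher for other blood transcription factors. RLE scaling gave 5 lower for splicing and 1 for stem cells, and 1 higher each for cytokine receptors, ER chaperones and other blood transcription factors. Library totals gave 7 higher for glycolysis, and as lower 2 for heat shock, 1 for DNA replication and 1 for mast cells. No filter gave 7 higher for glycolysis, 2 each for the citric acid cycle, mast and stem cells, 1 each for ER chaperones and myeloid cells, and as lower 2 each for NuRD and immediate early genes and 1 each for DNA replication and mast cells. The stricter filter gave 3 lower for the matrix list, 1 each for myeloid and stem cells and 0 for mast and stromal cells, and the block 2 lower for NuRD and 1 for stem cells. Counts limit genes under 1 CPM most, and a gene without reads in a group can still be expressed below the bound given.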
